A study of Mus musculus with 15 samples.

Results

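The genes of oxidative phosphorylation encode the protein subunits of the 4 respiratory chain complexes and of ATP synthase in the inner mitochondrial membrane. They were chosen by symbol alone: genes whose single annotated symbol starts with Ndufa, Ndufb, Ndufc, Ndufs, Ndufv, Uqcr, Cox4i, Cox5, Cox6, Cox7, Cox8 or Atp5, together with Sdha, Sdhb, Sdhc, Sdhd and Cyc1, leaving out assembly factors. This rule gave 83 of 18193 genes on the array: 36 of complex I, 4 of complex II, 9 of complex III, 17 of complex IV and 17 of ATP synthase (complex V). They have 170 of the 34945 probe sets that carry 1 gene symbol, and each gene was read from 1 of them, the brightest on average across the 15 arrays. The rule used no difference between samples.

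Complexes I and II take electrons from NADH and succinate, complex III passes them to cytochrome c, and complex IV passes them to oxygen. Complexes I, III and IV pump protons, and ATP synthase uses the return of those protons to make ATP. All subunits measured here are encoded in the nucleus, some with tissue isoforms that are known from muscle, heart, lung or testis.

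RNA came from wild-type C57Bl/6 mice at steady state and was read on Affymetrix 3′ arrays, which give 1 intensity per probe set. From bone marrow, 4 progenitor groups were sorted, with 2 arrays each. Common myeloid progenitors (CMP) were CD117-high and CD135+, common dendritic cell progenitors (CDP) CD117-intermediate and CD135+, precursors of classical dendritic cells (pre-cDC) CD117-low, CD135+ and CD11c+, and granulocyte-macrophage progenitors (GMP) CD117-high, CD16/32+ and CD135-. One more pre-cDC array is titled Spl, although its cell type label says bone marrow. Cultures of whole bone marrow lasted 7 days. Those with 20 ng/ml GM-CSF gave 1 array of adherent and 1 of non-adherent CD11c+ cells, and those with 20 ng/ml M-CSF gave 1 of adherent cells. Bone marrow monocytes, enriched by negative selection, were read after 0, 24 and 48 h with GM-CSF at 20 ng/ml, 1 array each. The labels do not say whether arrays of a group came from separate mice, so the p-values cover no more than the spread among these arrays, which may be technical.

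The median intensity over all probe sets was 15.95 to 17.4 on the 8 bone marrow progenitor arrays, 24.1 to 25.7 on the culture arrays, 77.7 to 80.5 on the monocyte arrays and 74.2 on the Spl array. Levels were therefore compared only within each of these sets. Kit, Flt3, Fcgr3 and Itgax followed the sorting gates: Flt3 was 1193 and 1204 in CMP and 35.9 and 31.8 in GMP, and Itgax was 153 and 124 in CDP and 1537 and 1563 in pre-cDC. In these bulk samples, fewer cells of a type and less RNA per cell cannot be told apart.

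The oxidative phosphorylation genes were among the brightest on every array. Of the 83, 76 lay above the array's median on all 8 progenitor arrays, 2 on some of them and 5 on none. The median member stood at the 94.3 to 96.9 percentile of all genes on the progenitor arrays, with both bone marrow pre-cDC arrays (94.8 and 94.3) below the other 6. Among the dim members were the tissue isoform genes Cox4i2, Cox7a1, Cox7b2, Cox8b and Ndufa4l2, with intensities of 1.0 to 16.7 on the progenitor arrays. Ndufb4 was also dim, at 4.1 to 13.8, and Cox7c stood at 52.8 to 169. Both genes are represented here by their single-symbol probe sets, and probe sets that carry several symbols were not used.

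The promoters of 5 genes are shown because these genes moved differently in the comparisons that follow. Atp5g1, Atp5g2 and Atp5g3 encode the same c subunit, which forms the rotating ring of ATP synthase. Atp5e encodes the ε subunit of its central stalk, and Ndufab1 encodes the mitochondrial acyl carrier protein, an accessory subunit of complex I. The sequences are the 250 bases before the annotated start site, from RefSeq on GRCm38.p6, all on the minus strand: Atp5g1 at chr11:96075632-96075881, Atp5g2 at chr15:102671048-102671297, Atp5g3 at chr2:73911327-73911576, Atp5e at chr2:174464102-174464351 and Ndufab1 at chr7:122101849-122102098. Capitals mark matches to the motifs described after them; the last match in Atp5g2 runs past the start site, so only its first bases are printed.
Atp5g1: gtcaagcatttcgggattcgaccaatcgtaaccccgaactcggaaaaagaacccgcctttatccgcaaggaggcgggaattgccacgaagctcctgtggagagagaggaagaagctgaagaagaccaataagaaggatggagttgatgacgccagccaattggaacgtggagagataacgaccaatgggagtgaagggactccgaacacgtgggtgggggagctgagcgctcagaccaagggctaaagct
Atp5g2: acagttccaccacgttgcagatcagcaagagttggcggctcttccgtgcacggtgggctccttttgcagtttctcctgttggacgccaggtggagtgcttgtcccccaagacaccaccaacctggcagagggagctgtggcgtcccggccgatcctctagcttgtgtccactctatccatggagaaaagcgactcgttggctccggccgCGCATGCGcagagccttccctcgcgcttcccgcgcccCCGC
Atp5g3: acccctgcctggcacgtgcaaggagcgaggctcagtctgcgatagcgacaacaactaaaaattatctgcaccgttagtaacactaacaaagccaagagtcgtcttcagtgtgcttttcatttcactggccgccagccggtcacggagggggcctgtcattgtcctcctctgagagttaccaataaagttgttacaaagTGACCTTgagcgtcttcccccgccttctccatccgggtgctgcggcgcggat
Atp5e: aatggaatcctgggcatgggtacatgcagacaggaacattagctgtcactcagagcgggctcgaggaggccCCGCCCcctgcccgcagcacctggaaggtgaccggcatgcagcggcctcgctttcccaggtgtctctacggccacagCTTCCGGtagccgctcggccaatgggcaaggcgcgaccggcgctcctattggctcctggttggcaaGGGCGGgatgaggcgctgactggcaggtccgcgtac
Ndufab1: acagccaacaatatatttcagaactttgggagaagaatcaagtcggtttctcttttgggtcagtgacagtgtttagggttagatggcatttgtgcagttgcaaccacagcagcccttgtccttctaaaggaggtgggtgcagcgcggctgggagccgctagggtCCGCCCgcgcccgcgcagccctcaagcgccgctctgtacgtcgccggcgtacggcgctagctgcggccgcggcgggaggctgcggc

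Promoters from 250 bases before to 50 bases after the start were searched on both strands for short cores of factors known for nuclear mitochondrial genes. A promoter was listed for 67 of the 83 members and for 14452 genes on the array; 5 members had several listed starts, of which the most upstream was used. The NRF1 core GCATGCG was found in 9 members (13.4%) against 5.33% of all genes, and the Ets core CCGGAAG, bound by GABP, in 16 (23.9%) against 13.8%. The YY1 core AAGATGG was found in 9 (13.4%) against 6.61%, and the estrogen-related receptor element AAGGTCA in 8 (11.9%) against 3.84%. The GC box GGGCGG was in 29 (43.3%) against 54.0% of all genes, and TATAAA in 8 (11.9%) against 9.87%. The 6 motifs were counted separately, and the NRF1 matches of Atp5g2 lie on opposite strands and overlap. The 3 c-subunit genes differed in these letters. Atp5g2 held the NRF1 core on both strands, 41 and 40 bases before the start, and a GC box. Atp5g3 held the receptor element 52 bases before the start, and Atp5g1 held none of the 6 motifs. Atp5e held the Ets core 102 bases before the start, 2 GC boxes and, 24 bases past the start and so outside the printed stretch, the receptor element. Ndufab1 held a GC box. These matches are descriptions of the window, not measured binding.

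GMP were set against CMP to ask how these genes differ between the granulocyte-macrophage branch and the earlier progenitor. Atp5a1, Atp5b, Atp5g1 and Atp5g3 of ATP synthase and Cyc1 and Uqcrc1 of complex III were among the genes higher in GMP, while Atp5e, Cox7c, Ndufb9 and Uqcrh were among those lower; Atp5g2, Uqcrc2 and Uqcrfs1 were not called. In total 23 members were called (adjusted p below 0.05, limma), 11 higher and 12 lower, or 27.7%. Of all 18193 genes 16.8% were called, 7.00% higher and 9.76% lower, and 32.7% of the 4483 genes with a mean above 200 on the 8 arrays, a background chosen after the data were seen (13.4% higher and 19.3% lower). The members' median log2 difference was -0.04, against -0.01 for all genes. With quantile scaling the call was 6 higher and 14 lower, with a median of -0.09 for the members and 0.01 for all genes. No share of all genes called under this scaling is given, here or below.

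Atp5b, the catalytic β subunit, read 2761 and 2745 in CMP and 3570 and 3767 in GMP, so the arrays did not overlap, as for 26.7% of all genes in this direction and 30.8% in the other. It was higher in GMP by 0.41 ± 0.07 (log2, SE; adjusted p = 0.00074, limma). Atp5a1, the α subunit, read 2502 and 2429 in CMP and 2979 and 3325 in GMP, a log2 difference of 0.35. The c-subunit gene Atp5g1 was 1417 and 1198 in CMP and 1649 and 1738 in GMP (0.37), and Atp5g3 was 3048 and 3145 against 3637 and 3818 (0.26). Each of these 4 ATP synthase genes was higher on both GMP arrays than on either CMP array. In complex III, Cyc1 (cytochrome c1) differed by 0.38 and the core subunit Uqcrc1 by 0.34. Cox6a1, the widely expressed form of a complex IV subunit, was 4235 and 3852 in CMP and 5247 and 5368 in GMP (0.39, adjusted p = 0.00108). The other higher members were Cox5a and Cox5b of complex IV and Ndufb3 and Ndufv3 of complex I. Under quantile scaling Atp5a1, Atp5g1, Atp5g3, Cox5a and Cox5b were no longer called, with differences of 0.22, 0.35, 0.10, 0.07 and 0.14.

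Atp5e had the largest fall of the members in GMP. It read 1583 and 1482 in CMP, 701 and 639 in GMP, 1425 and 1375 in CDP and 1602 and 1471 in pre-cDC. Only the GMP arrays were low, and the other 6 lay between 1375 and 1602. Its difference between GMP and CMP was -1.16 ± 0.09 (log2, SE; adjusted p = 1.38e-06, limma), a 2.23-fold drop, and it was higher by 1.03 in CDP and by 1.16 in pre-cDC than in GMP. Cox7c, a small complex IV subunit, was 122 and 157 in CMP and 52.8 and 57.0 in GMP (-0.97), from a dim probe set. The complex I accessory gene Ndufb9 was 1112 and 1054 against 733 and 688 (-0.59), and Atp5md was 1597 and 1593 against 1026 and 1105 (-0.57). Ndufb9 lost the call with the mean of its probe sets (-0.31, adjusted p = 0.0525, limma) and with plain probe sets only (-0.37, adjusted p = 0.0510). Uqcrh, the hinge protein of complex III, was 1726 and 1659 against 1222 and 1204 (-0.47). Of the 12 genes lower in GMP than in CMP, 9 were also lower in GMP than in CDP: Atp5e, Atp5j2, Atp5md, Cox6a2, Cox7c, Ndufa7, Ndufb8, Ndufb9 and Uqcrh. Both comparisons use the same GMP arrays, which favours such an overlap, and it was not counted over all genes.

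**Figure D1:**
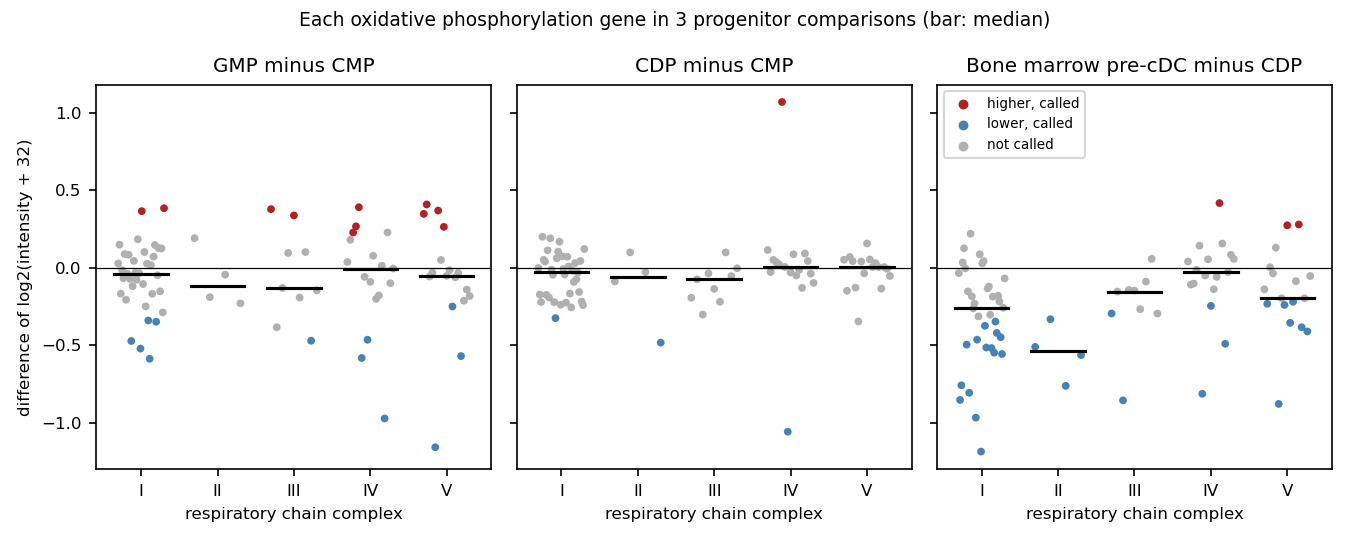
Log2 differences of the 83 oxidative phosphorylation genes, 1 point per gene, grouped by respiratory chain complex on the x axis for GMP minus CMP, CDP minus CMP and bone marrow pre-cDC minus CDP. Red and blue points passed the test (adjusted p below 0.05) and bars are medians; in the third panel the blue points lie in every complex, and the medians are -0.26 in complex I and -0.54 in complex II.

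The sum of 6 granulocyte genes (Elane, Mpo, Prtn3, Ctsg, Ms4a3, Gfi1) was 11367 and 10717 in CMP and 30111 and 30687 in GMP, and all 6 were higher in GMP. The sum of 6 mast cell, basophil and eosinophil genes was 173 and 193 in CMP and 882 and 1049 in GMP, with 5 of 6 higher. The part of these cells in the differences above was not tested. The counts in GMP against CMP depended on single arrays. Without any 1 of the CMP or GMP arrays, fewer members were called, and fewer of all genes too. The members' median difference was then -0.02 and -0.07 without CMP arrays 1 and 2. It was -0.05 and -0.03 without GMP arrays 1 and 2.

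Few of these genes were called between CDP and CMP. Only 4 of the 83 were called (4.82%), 1 higher and 3 lower, where 14.4% of all genes were called, 7.68% higher and 6.75% lower. Among genes with a mean above 200 the share was 28.4%, with 19.3% higher and 9.10% lower. The members' median difference was -0.02. Cox6a2, the heart and muscle form of a complex IV subunit, was dim but ordered by group: 26.8 and 28.9 in CMP, 10.8 and 5.4 in GMP, 97.9 and 89.5 in CDP and 48.7 and 31.4 in pre-cDC. It was higher in CDP than in CMP by 1.07 ± 0.12 (log2, SE; adjusted p = 5.74e-05, limma), and it was the only member called in all 5 comparisons. Cox6b2, a form known from testis, went the other way, from 394 and 310 in CMP to 139 and 166 in CDP (-1.06). Sdhd, a membrane anchor of complex II, was 1151 and 1113 in CMP and 886 and 725 in CDP (-0.48), and Ndufab1 was 1781 and 1863 against 1481 and 1416 (-0.32). Ndufab1 lost the call with the mean of its probe sets (-0.14, adjusted p = 0.252, limma), and with plain probe sets only both Ndufab1 (-0.12, adjusted p = 0.596) and Sdhd (-0.27, adjusted p = 0.0816) lost it. Quantile scaling raised the count to 13, with 1 higher and 12 lower, and moved the members' median to -0.11. The median of all genes was -0.01 under this scaling. Leaving out CDP array 2 gave 2 called members. The summed level of 9 erythroid genes was 7301 and 4930 in CMP and 174 and 245 in CDP, with 7 of 9 lower in CDP, and their part in these 4 calls was not tested.

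Setting CDP against GMP, which share no array with each other but whose groups also enter the comparisons with CMP, 26 members were called (31.3%), 11 higher and 15 lower, where 28.0% of all genes were called, 15.9% higher and 12.1% lower. Of the genes with a mean above 200, 34.0% were higher and 18.5% lower. Quantile scaling gave 9 higher and 20 lower and turned the members' median from 0.03 to -0.04. It moved the median of all genes from 0.004 to -0.03. The genes lower in CDP included Atp5g1 (972 and 1068 in CDP against 1649 and 1738 in GMP, -0.71), Cyc1 (-0.57), Atp5b (2490 and 2475 against 3570 and 3767, -0.56) and Uqcrc1 (-0.47). With plain probe sets only, which leaves Atp5g1 a probe set with a mean of 10.8, Atp5g1 was not called (-0.10, adjusted p = 0.304, limma). The genes higher in CDP, beside Atp5e, Cox7c and Cox6a2, included Ndufa7 (0.46), Atp5md (0.43), Ndufb9 (0.42) and Uqcrh (0.42). Ndufb9 lost this call with the mean of its probe sets (0.19, adjusted p = 0.178, limma) and with plain probe sets only (0.17, adjusted p = 0.348). Without GMP array 2 the count was 11. Across all 4 groups, 10 members were called higher in GMP than in each of CMP, CDP and pre-cDC: Atp5a1, Atp5b, Atp5g1, Atp5g3, Cox5b, Cox6a1, Cyc1, Ndufb3, Ndufv3 and Uqcrc1. They are 12.0% of the members, where 4.24% of all genes and 7.00% of genes with a mean above 200 met the same rule. Called lower in GMP than in all 3 were 6 members (7.23%, against 4.99% and 12.7%): Atp5e, Cox6a2, Cox7c, Ndufa7, Ndufb8 and Uqcrh. Of the 10 higher members, Atp5a1, Atp5g1, Cox5b and Uqcrc1 lost the call against CMP with the mean of all probe sets. Their differences there were 0.25, 0.16, 0.17 and 0.34 (adjusted p = 0.0613, 0.235, 0.198 and 0.0518, limma). Atp5a1, Atp5g1, Atp5g3 and Cox5b lost it under quantile scaling.

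**Figure D2:**
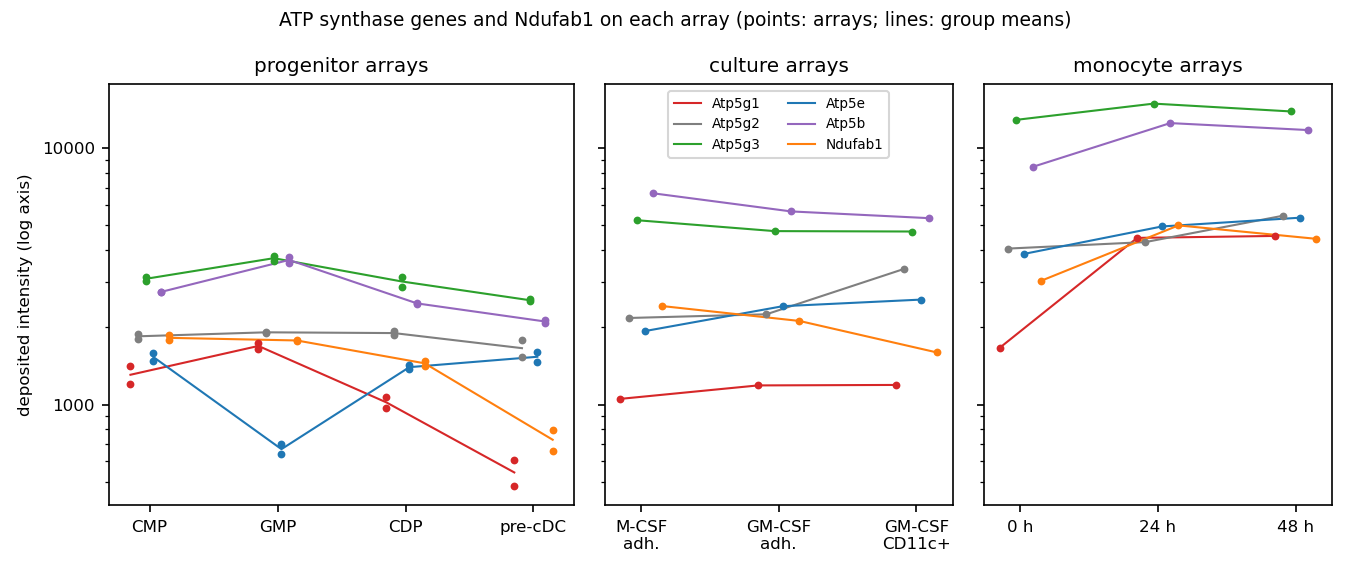
Deposited intensity (log axis) of 5 ATP synthase genes and Ndufab1 on the progenitor, culture and monocyte arrays; points are arrays and lines join the group means. Atp5e dips in GMP alone, Atp5g1 falls from 1694 in GMP to 544 in pre-cDC while Atp5g2 moves little, and in monocytes Atp5g1 goes from 1663 to 4473 at 24 h.

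Between CDP and bone marrow pre-cDC most of the called genes were lower in pre-cDC. Here 34 members were called (41.0%), 3 higher and 31 lower, where 33.2% of all genes were called. The 31 lower members are 37.3% of the 83, against 18.8% of all genes and 36.0% of genes with a mean above 200, so the share called lower is close to that of other bright genes. The 3 higher members are 3.61%, against 14.4% of all genes and 26.5% of the bright ones. The median difference was -0.18 for the members, -0.01 for all genes and -0.10 for the bright genes. Both pre-cDC arrays lay below all 6 other progenitor arrays for 32 members (38.6%), 25 of them among the 31, where this held for 22.7% of all genes and 36.6% of the bright genes. Set against CDP alone, the arrays did not overlap for 50 members lower and 8 higher in pre-cDC. Of all genes 32.9% were lower in this way and 28.4% higher. These shares were not counted for the bright genes, so this cannot be set against them. Quantile scaling gave 1 higher and 49 lower, with a median of -0.28 for the members and -0.01 for all genes. The share of all genes called under this scaling is not given, so these counts cannot be set against the shares above.

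Among the genes named for complex I, 15 of 36 were lower and 0 higher, with a median of -0.26. This count includes Ndufa4, grouped here by its symbol although its protein is now known as a complex IV component. Ndufb2, an accessory subunit, read 575 and 570 in CDP and 265 and 206 in pre-cDC, a difference of -1.18 ± 0.12 (log2, SE; adjusted p = 6.54e-06, limma). Its second bright probe set differed by -1.10. Its plain probe set, with a mean of 23.0, differed by 0.05 (adjusted p = 0.773, limma), so the sign turned and the call was lost there. Ndufab1 read 1481 and 1416 in CDP and 798 and 660 in pre-cDC (-0.97 ± 0.09, adjusted p = 3.9e-06, limma), and the pre-cDC arrays were the lowest of the 8. Ndufa10, another accessory subunit, was 1290 and 1221 against 784 and 592 (-0.85). Ndufa5 was 490 and 492 against 313 and 227 (-0.81), and Ndufa12 was 1406 and 1439 against 898 and 764 (-0.76). Among the core subunits, Ndufv1, which binds NADH, was 981 and 757 against 670 and 494 (-0.56), and the iron-sulphur subunit Ndufs1 was 449 and 506 against 317 and 316 (-0.55). The core subunits Ndufs3 (-0.35) and Ndufs8 (-0.45) were also lower, while Ndufs7 (-0.22) and Ndufv2 (-0.26) did not pass the test. For Ndufs8, 1 of its other bright probe sets went the other way, at 0.45. Ndufv1 and Ndufb5 lost the call without pre-cDC array 2 (adjusted p = 0.0963 and 0.191, limma) and without CDP array 1 (0.0910 and 0.0950).

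In complex II, which also works in the citric acid cycle, all 4 genes were lower. Sdha, the flavoprotein, was 1256 and 1222 in CDP and 888 and 834 in pre-cDC (-0.51 ± 0.09, adjusted p = 0.000379, limma). Sdhb, the iron-sulphur subunit, was 1342 and 1259 against 1115 and 946 (-0.33). The membrane anchors were lower as well, Sdhc at 367 and 352 against 227 and 174 (-0.76) and Sdhd at 886 and 725 against 535 and 530 (-0.56). The groups did not overlap for any of the 4. Sdhb lost the call without pre-cDC array 2 and without CDP array 1 (adjusted p = 0.144 and 0.0963, limma).

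Fewer genes were called in complexes III and IV. In complex III, Uqcr11 was 918 and 893 in CDP and 540 and 438 in pre-cDC (-0.85), Cyc1 was 1040 and 952 against 810 and 802 (-0.29), and the other 7 of 9 genes were not called. Cyc1 lost the call without CDP array 1 or either pre-cDC array (adjusted p = 0.126, 0.0517 and 0.0701, limma). In complex IV, 3 of 17 genes were lower (Cox6a2, Cox7c and Cox6c) and 1 higher, with a median of -0.03. Cox6c lost the call without CDP array 2 or pre-cDC array 2 (adjusted p = 0.135 and 0.158, limma), and Cox7c without CDP array 2 or pre-cDC array 1 (0.157 and 0.163). The main structural genes were not called: Cox4i1 read 3487 and 3572 in CDP and 3706 and 3560 in pre-cDC (0.04), Cox5a differed by -0.10 and Cox5b by -0.01. Cox7a2l, known as a factor that joins complexes III and IV into supercomplexes, was the member with the largest rise, from 1955 and 1567 in CDP to 2442 and 2262 in pre-cDC (0.42 ± 0.10, adjusted p = 0.00502, limma). That call was lost without CDP array 2 (adjusted p = 0.0602, limma).

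In ATP synthase 7 of 17 genes were lower and 2 higher. Among the c-subunit genes, Atp5g1 was 972 and 1068 in CDP and 605 and 482 in pre-cDC (-0.88 ± 0.12, adjusted p = 5.54e-05, limma), Atp5g3 was 2890 and 3158 against 2584 and 2527 (-0.24), and Atp5g2 was 1874 and 1929 against 1789 and 1532 (-0.20, not called). On the other probe set of Atp5g1, a plain one with a mean of 10.8, the difference was -0.01 (adjusted p = 0.957, limma), so its call rests on 1 probe set. Whether Atp5g1 differed from the other c-subunit genes in its change was not tested. Atp5o, which links the stalk to the catalytic head, differed by -0.41, Atp5j by -0.35 and Atp5b by -0.23. Without pre-cDC array 2, Atp5b, Atp5g3 and Atp5o were not called (adjusted p = 0.0586, 0.0706 and 0.0666, limma), and Atp5g3 was also lost without CDP array 2 (0.118) and Atp5b without CDP array 1 (0.05005). The 2 higher genes were Atp5h, a stalk subunit (2538 and 2563 in CDP, 3187 and 2999 in pre-cDC, 0.27), and Atp5l, a membrane subunit (2427 and 2155 against 2877 and 2694, 0.28). Both lost the call under quantile scaling, with differences of 0.08 and 0.11, and Atp5l also without CDP array 2 or pre-cDC array 1 (adjusted p = 0.107 and 0.0760, limma).

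**Figure D3:**
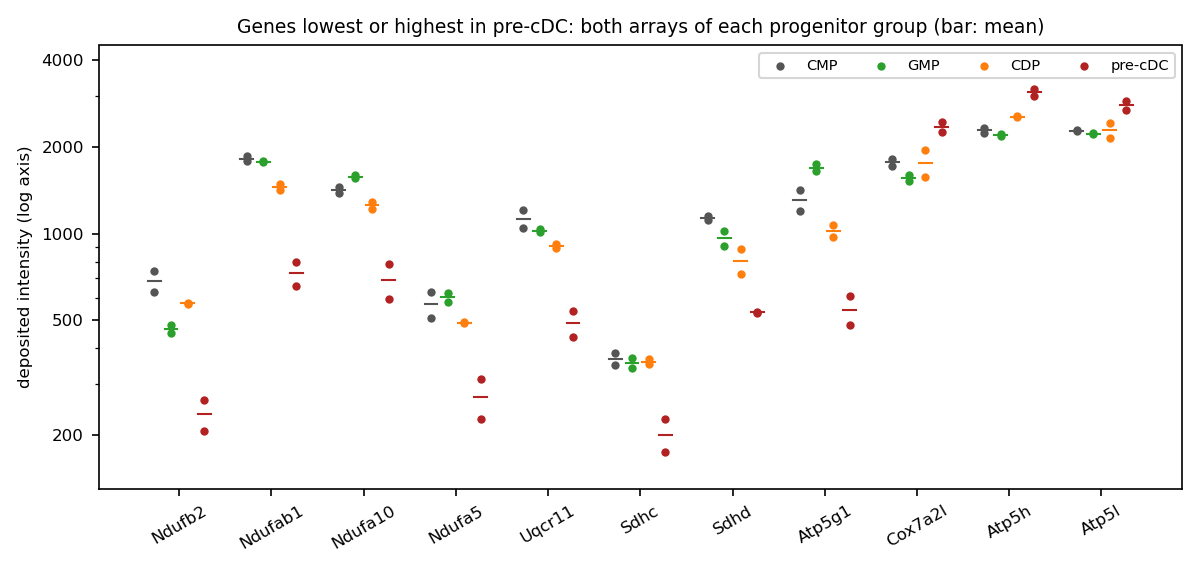
Deposited intensity (log axis) on both arrays of each progenitor group for 8 genes lower and 3 genes higher in pre-cDC than in CDP, with bars at group means. For Ndufb2, Ndufab1, Ndufa10, Ndufa5, Uqcr11, Sdhc, Sdhd and Atp5g1 both pre-cDC points lie below all other points of the gene, and for Cox7a2l, Atp5h and Atp5l both lie above them.

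The 2 bone marrow pre-cDC arrays were not level in these genes. Array 1 was higher than array 2 for 76 of 83 members, with a median difference of 0.16 where the median over all genes was 0.01. Array 1 was also the higher one for 55 members in CMP, 49 in GMP and 51 in CDP, with medians of 0.04, 0.02 and 0.04. Set against the CDP mean one at a time, array 1 had 58 members below it (median -0.11) and array 2 had 69 (median -0.28). Without pre-cDC array 2 fewer members were called against CDP, and without array 1 more were. Fewer of all genes were called in both cases. The size of the difference in the members thus depended on which pre-cDC array was kept. The sum of the 6 granulocyte genes was 8727 and 10359 in CDP and 232 and 174 in pre-cDC, with 6 of 6 lower, and 7 of 9 dendritic cell genes were higher in pre-cDC. The part of either in the differences was not tested.

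Other genes of mitochondrial respiration were counted in the same comparison. Of all genes 18.8% were called lower and 14.4% higher there, and of genes with a mean above 200 36.0% and 26.5%. Of 42 measured assembly factors, 24 were lower and 3 higher in pre-cDC (median -0.39). Ndufaf2, a complex I assembly factor, was 623 and 588 in CDP and 197 and 152 in pre-cDC (-1.63), and Ttc19, known from complex III, went up from 99.8 and 144 to 241 and 392 (1.16). Of 18 genes of the citric acid cycle and pyruvate dehydrogenase, 10 were lower and 0 higher (median -0.37). Idh2 was 1467 and 1308 against 525 and 442 (-1.46), whereas citrate synthase (Cs) was 1106 and 1202 against 1171 and 1087 (-0.03, not called). Of 22 mobile carriers and exchangers, 16 were lower and 0 higher (median -0.41), among them Coq4 and Coq7 of ubiquinone synthesis (-1.01 and -0.86), while cytochrome c (Cycs) differed by -0.01. Of 20 regulators of mitochondrial biogenesis, 10 were lower and 1 higher (median -0.32), including Pprc1, a coactivator (-0.70), Gabpb1 (-0.68) and Tfam, which packages mitochondrial DNA (-0.63). The 1 higher regulator was Gabpb2 (0.48). Of 10 genes of uncoupling and defence against reactive oxygen, 4 were lower, Prdx3 and Sod2 among them (-0.64 and -0.44), and 1 higher, Gpx1 (0.19).

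**Figure D4:**
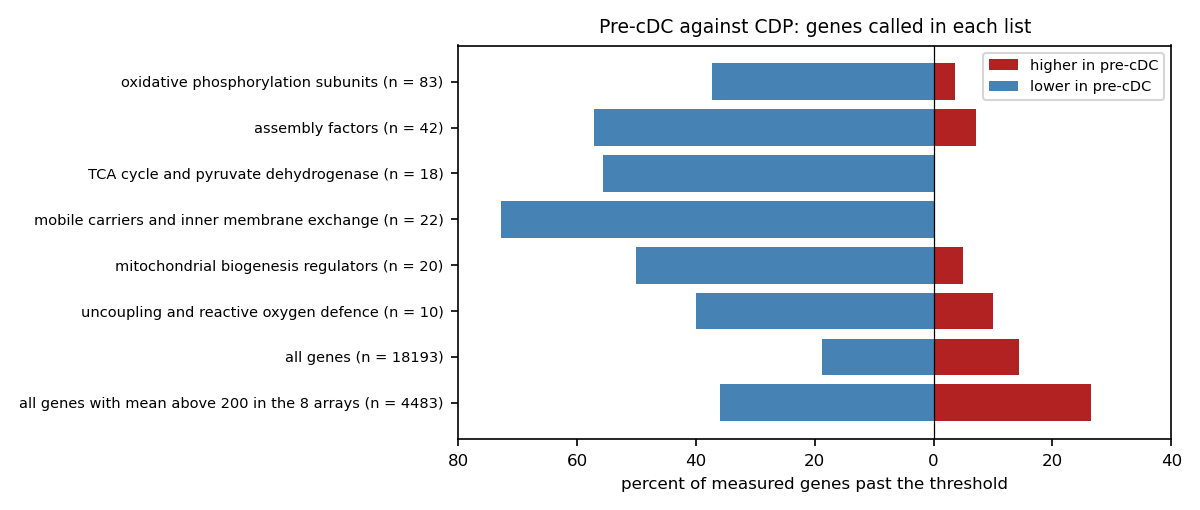
Share of measured genes called lower (blue, to the left) or higher (red, to the right) in bone marrow pre-cDC than in CDP, in percent, for the oxidative phosphorylation subunits, 5 other mitochondrial lists, all genes and all genes with a mean above 200. The subunits have 37.3% lower and 3.61% higher, and the bright genes 36.0% and 26.5%.

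Pre-cDC against GMP, which uses the same pre-cDC arrays, gave 48 called members (57.8%), 12 higher and 36 lower, where 44.0% of all genes were called, 21.0% higher and 23.1% lower. Among genes with a mean above 200 the shares were 38.5% higher and 37.4% lower. The arrays did not overlap for 33.3% of all genes higher and 36.2% lower in pre-cDC. Quantile scaling gave 6 higher and 50 lower, with a median of -0.32 for the members and -0.03 for all genes. Of the 31 members lower than in CDP, 22 were lower than in GMP too. The shared pre-cDC arrays favour such an overlap, and it was not counted over all genes. Atp5g1 had the largest difference, -1.59 ± 0.12 (log2, SE; adjusted p = 1.06e-07, limma), followed by Ndufab1 (-1.26), Ndufa10 (-1.17), Ndufa5 (-1.08) and Uqcr11 (-1.03). With plain probe sets only, Atp5g1 was not called (-0.11, adjusted p = 0.214, limma) and Ndufb2 turned from -0.90 to 0.29 (adjusted p = 0.0242), both on the dim probe sets already described. The higher genes included Atp5e (1.16), Cox6a2 (0.84), Cox7a2l (0.58), Cox7c (0.58), Atp5h (0.48) and Uqcrh (0.47). Cox7a2l, Atp5h and Atp5l were the 3 members higher in pre-cDC than in both CDP and GMP.

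The Spl array has no replicate and another scale, so members were placed by rank among all genes. Of the 83, 43 ranked above both bone marrow pre-cDC arrays, 24 below both and 16 between. The same was not counted over all genes, so these counts are not read as a trait of the members. The median member stood at the 94.4 percentile, between the 94.8 and 94.3 of the bone marrow pre-cDC arrays. Atp5b stood at the 92.2 percentile on the Spl array and at 97.8 on each bone marrow pre-cDC array. Atp5a1 stood at 97.8 on the Spl array and at 98.3 and 98.0 on the others.

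In the 7-day cultures few of these genes differed by 1.5-fold. Single arrays were set side by side with no test, counting differences of 1.5-fold or more where the higher value was above its array's median. Between GM-CSF and M-CSF adherent cells 1 of 83 members was counted (1.20%), where 12.3% of all genes were (6.48% higher and 5.86% lower with GM-CSF): the muscle form Cox7a1, at 17.7 with GM-CSF and 71.6 with M-CSF. The median difference was -0.04. Between non-adherent CD11c+ and adherent cells of the GM-CSF culture 2 were counted (2.41%), where 11.6% of all genes were (6.30% higher and 5.27% lower), both lower in the CD11c+ cells. Ndufa4 was 2253 in adherent and 1317 in CD11c+ cells (-0.76), and Ndufc1 was 1912 and 1076 (-0.81). Between CD11c+ cells of the GM-CSF culture and adherent M-CSF cells 8 members were counted (9.64%), where 20.8% of all genes were, 10.5% higher and 10.3% lower. Ndufa4 had the largest of these differences, 1317 against 3113 (-1.22). Ndufa12, Ndufab1, Ndufc1, Sdhc and Cox7a1 were also lower in the CD11c+ cells, and Atp5g2 (3384 against 2178) and Cox7c (109 against 53.8) were higher. The CD11c+ array is shared by these last comparisons, and the adherent GM-CSF array by the first pair.

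In monocytes, more of these genes were higher after 24 h with GM-CSF. The median difference from 0 h was 0.12 where that of all genes was 0.00, and 63 members were higher and 19 lower. The 1.5-fold count was 10 (12.0%), 8 higher and 2 lower, where 25.0% of all genes were counted, 12.0% higher and 13.1% lower. Atp5g1 read 1663 at 0 h, 4473 at 24 h and 4552 at 48 h, a 2.66-fold difference by 24 h, while Atp5g2 read 4063, 4308 and 5460 and Atp5g3 read 12917, 14949 and 13930. Ndufab1 was 3039, 5004 and 4436, Sdhc was 2707, 4497 and 3937, Ndufa5 was 3965, 6458 and 4826, and Uqcr11 was 3461, 5374 and 5439. Ndufs5, an accessory subunit of complex I, was 857, 1496 and 1601. The other higher ones were Ndufa12 (5516, 8664 and 7203) and the dim Cox7a1 (39.2, 91.2 and 64.1). The 2 lower ones were Cox6b2, at 229, 26.6 and 59.2, and Cox7c, at 586, 273 and 332.

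Between 24 and 48 h, 0 members were counted, where 10.5% of all genes were (7.07% higher and 3.47% lower), and the median difference was -0.05. From 0 to 48 h 5 were counted (6.02%), where 25.0% of all genes were (13.4% higher and 11.6% lower): Atp5g1, Ndufs5 and Uqcr11 higher, and Cox6b2 and Cox7c lower. Over the course 46 members were higher at 24 h and then lower at 48 h, 17 were higher at each step, 15 lower then higher, 4 lower at each step and 1 equal at a step. These are 55.4%, 20.5%, 18.1%, 4.82% and 1.20% of the members, against 29.4%, 20.7%, 32.1%, 16.8% and 0.978% of all genes. Both steps share the single array at 24 h, which favours opposite signs at the 2 steps. A course in time and a deviation of that array cannot be told apart. The other lists were counted from 0 to 24 h, where 12.0% of all genes were higher and 13.1% lower. Of the assembly factors 16 of 42 were higher at 24 h and 4 lower, and of the carriers 6 of 22 and 1. Of the citric acid cycle genes 2 of 18 were higher and 0 lower, and of the uncoupling and defence genes 5 of 10 and 0. Of the 20 regulators of biogenesis 4 were higher and 3 lower. Among them the coactivator Ppargc1b read 140 at 0 h, 631 at 24 h and 551 at 48 h, while from 0 to 24 h Polg2 went from 1887 to 723, Gabpb2 from 3675 to 1633 and Nrf1 from 813 to 467. The 0 h array also held granulocyte genes that were far lower later: Prtn3 was 10005, 166 and 156, Ctsg 6315, 70.2 and 98.8, Mpo 4935, 170 and 277, and the sum of the 6 genes was 23598, 1277 and 890. Elane fell too (1791, 290 and 56.9), Ms4a3 changed less (526, 416 and 251), and Gfi1 was higher later (26.1, 165 and 49.5). The 6 measured B cell genes did not move together. Cd79b was 700, 25.0 and 20.0 and Vpreb1 124, 40.8 and 66.9. Cd79a was 39.8, 44.5 and 37.3 and Pax5 227, 238 and 148. The dim Ebf1 was 9.5, 10.9 and 5.1 and Vpreb3 18.1, 13.6 and 19.2. The part of such cells in the members' differences was not tested.

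The members called lower in pre-cDC were also looked up in the monocyte arrays. Of the 31 members lower in pre-cDC than in CDP, 28 were higher at 24 h than at 0 h in monocytes, with a median difference of 0.33, and of the 49 not called 34 were higher, with a median of 0.08. Across the 83 genes the differences had a Pearson r of -0.41 and a Spearman rho of -0.46. The comparisons share no array, genes are not independent replicates, and the monocyte differences rest on 1 array each. Against the difference between CD11c+ and adherent GM-CSF cells, r was 0.43 and rho 0.36, and 20 of the 31 were lower in the CD11c+ cells against 18 of the 49 not called. Against the difference between GM-CSF and M-CSF adherent cells, r was 0.12 and rho 0.16, and 20 of the 31 were lower with GM-CSF against 28 of the 49. All these counts and correlations were made for the members alone. Whether other genes lower in pre-cDC behave alike was not tested.

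**Figure D5:**
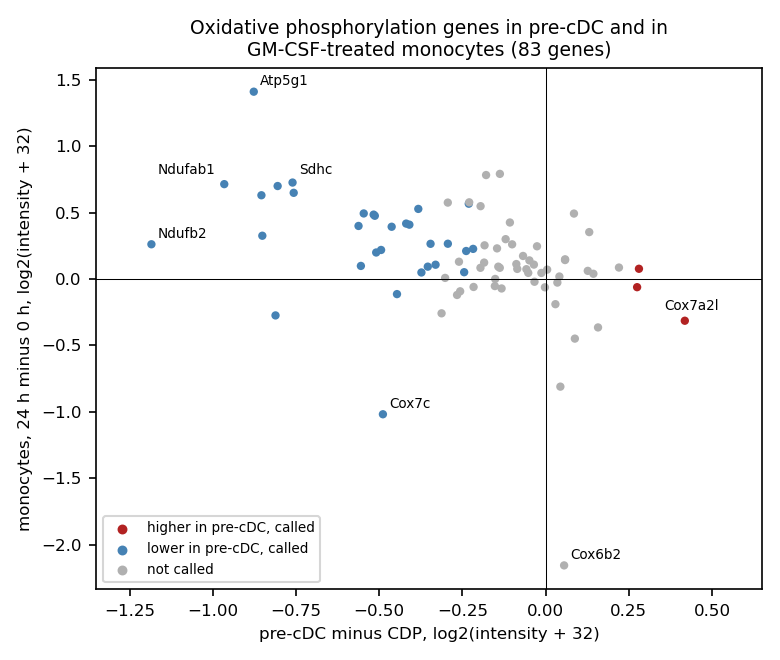
Each of the 83 genes by its log2 difference between bone marrow pre-cDC and CDP (x axis) and between monocytes at 24 h and 0 h of GM-CSF (y axis), with genes called in the first comparison in blue (lower) or red (higher). Of the 31 blue points 28 lie above 0 on the y axis, and Atp5g1 lies at -0.88 and 1.41.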

How the data were processed

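Expression of mouse bone marrow cells was measured on 15 one-colour Affymetrix 3′ arrays. Each array has 1 deposited intensity, on a linear scale, for every probe set. The authors' background correction, summary and scaling are not given in the sources, and the number of arrays limits precision. Of the probe sets, 34945 had 1 gene symbol in the platform annotation, 932 several and 9160 none, and only the first were used, 1 per gene (highest mean over 15 arrays). Members and lists were chosen with earlier results of these data known.

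Values were taken as log2(intensity + 32), which understates changes of dim genes. The 8 progenitor arrays entered 1 limma fit (limma 3.58.1, R 4.3.3; lmFit, contrasts.fit, eBayes with trend) with 4 groups (residual degrees of freedom 4, moderated 12.6). Two-sided p-values were adjusted by Benjamini-Hochberg across the 18193 genes, with a threshold of 0.05, and the steps were tested on simulated data. Single arrays had no test. Named genes were members past the threshold whose arrays did not overlap (the 6 largest each way), members counted in single-array comparisons (the 4 largest each way), a fixed panel of catalytic subunits and tissue isoforms, and up to 3 called genes per other list; others, such as Ndufs3, Atp5j, Cs and Cycs, were named after their values were seen. Promoter sequences came from RefSeq. Alternatives were pseudocount 8, quantile scaling, other probe set choices, a filter on dim genes, the replicate block and leaving out each array. The title numbers (WT1, WT2) correlated at -0.02 to 0.18 between groups, so they were not taken as pairs.

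Probe sets whose names mark shared targets (12 of the s type and 7 of the x type among the 83) can also read related genes or pseudogenes, so those genes, Ndufa12, Ndufab1, Ndufs8, Sdhd, Cox5b, Cox7c, Atp5a1 and Atp5e among them, are less certain.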

Additional observations from a re-analysis of the deposited data

How the results depend on the processing

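The members called in pre-cDC against CDP and against GMP stayed within 1.5 times of 34 and 48 under pseudocount 8, quantile scaling, the other probe set choices, the filter on dim genes and the replicate block. The count in GMP against CMP was 14 with the mean of all probe sets of a gene and 14 with plain probe sets only, which left 67 members. In CDP against CMP it was 2 with plain probe sets only and 13 with quantile scaling. Among single arrays, plain probe sets only gave 2 for GM-CSF against M-CSF adherent cells and 1 for monocytes at 48 h against 24 h. For CD11c+ against adherent GM-CSF cells the count was 4 with pseudocount 8 and 4 with quantile scaling.

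Wherever an array of a compared group was left out, fewer of all genes were called. The member counts did not always follow, and rose without pre-cDC array 1. Whether such changes are particular to the members was not tested. The replicate block rests on shared title numbers alone. With it 3329, 2948, 5329, 6277 and 8161 of all genes were called, in the order of the comparisons below. Without it they were 3049, 2626, 5090, 6041 and 8013. With the block 24 members were called between GMP and CMP, 5 between CDP and CMP and 31 between CDP and GMP. Between pre-cDC and CDP 38 members were called, and between pre-cDC and GMP 52. Leaving out 1 array at a time gave 8 to 24, 2 to 5, 11 to 32, 21 to 42 and 34 to 52 in the same order; the lone array was then assumed to vary like the other groups.

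Signs turned for 3 genes with plain probe sets only, each read there from a dimmer probe set: Atp5g1 in GMP against CMP (-0.041), Cox5b in CDP against GMP (0.080) and pre-cDC against GMP (0.15), and Ndufb2 in pre-cDC against CDP (0.046) and against GMP (0.29). Atp5g1 also lost its calls there in CDP against GMP and in pre-cDC against CDP and GMP. Of 100 called differences of named genes, 71 held under every setting that kept all arrays and 51 also with each array left out. Other bright probe sets of called members had the same sign in 24 of 25 cases in pre-cDC against CDP, with Ndufs8 the exception, and in 16 of 16 in GMP against CMP. Signal over background limits the dim isoform genes.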
